A study of Mus musculus with 12 samples.

Results

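Transporters move organic anions, bile salts, steroid conjugates and drugs into and out of hepatocytes, and 10 of their genes were followed in mouse liver: the uptake carriers Slco1a1, Slco1a4, Slco1b2 and Slco2b1, and the ATP-driven efflux pumps Abcc2, Abcg2, Abcb1a, Abcc3, Abcc4 and Abcc6. They were taken by gene symbol from the deposited tables, as 10 of the 51912 genes counted. Of the 10, 8 passed edgeR's filter on low counts and were tested among 8594 genes. Abcb1a and Abcc4 did not pass and are described by their counts alone.

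The study compared liver RNA of 12 adult male mice in 4 groups of 3. WT mice received corn oil, the vehicle, or CITCO, an agonist of the human constitutive androstane receptor (CAR). Work cited by the study, mainly in cell lines, proposes that CITCO also activates the human pregnane X receptor (PXR). Mice with human CAR and human PXR in place of the mouse receptors (hCAR/hPXR) and mice lacking Car with human PXR (Car KO/hPXR) received CITCO. The receptor-modified lines are on a C57BL/6NTac background per the methods, and the strain of the WT mice was not given in the sources used here. Injections were intraperitoneal and daily for 4 days, and the mice were killed on day 5. CITCO was dosed at 10 mg/kg according to the labels, while for short treatments the methods name 10 and 50 mg/kg. The 2 genotypes with human receptors have no vehicle group among these libraries, so that for them the effect of CITCO cannot be told apart from that of the genotype. Human CAR and PXR transcripts are not among the genes counted.

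Organic anion transporting polypeptides (OATPs, Slco genes) take bile salts, hormone conjugates and drugs up from blood across the sinusoidal membrane. The multidrug resistance-associated proteins (MRPs, Abcc genes), P-glycoprotein (Abcb1a) and the breast cancer resistance protein (Abcg2) export their substrates with ATP, either into bile across the canalicular membrane or back into blood. CAR and PXR are ligand-activated nuclear receptors that bind DNA as heterodimers with RXR and are known as regulators of drug-metabolising enzymes and of several transporters in liver.

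The libraries held between 1167008 and 2341557 rounded counts, and 3 counts were worth 1.34 to 2.5 CPM (counts over the normalised library size). Mouse Nr1i2, the gene for PXR, had between 100 and 199 counts in the 6 WT libraries and between 0 and 2 in the other 6. Nr1i3, the gene for CAR, had between 104 and 287 counts in WT and between 0 and 6 in the other 6, so that both receptor genes followed the labelled genotype. Hepatocyte markers summed to 29000 to 32900 CPM in WT corn oil, 28500 to 36600 in WT CITCO and 31200 to 34300 in Car KO/hPXR mice, and to 23200, 23500 and 39500 CPM in hCAR/hPXR replicates 1 to 3. Summed acute phase genes stood at 2370 to 2790 CPM in WT corn oil, 2810 to 8840 in WT CITCO, 6610 to 18600 in hCAR/hPXR and 2650 to 3210 in Car KO/hPXR mice. The WT CITCO range overlapped those of hCAR/hPXR and Car KO/hPXR mice. The 5 red blood cell markers summed to 1860 to 2190 CPM in hCAR/hPXR mice and to 1990 to 3990 CPM in the other groups. Sums of other cell markers follow in the order WT corn oil, WT CITCO, hCAR/hPXR and Car KO/hPXR. They were 200 to 218, 176 to 206, 167 to 186 and 195 to 226 CPM for endothelial cells. Kupffer cell sums were 239 to 292, 267 to 405, 309 to 455 and 276 to 337 CPM. Stellate cell sums were 215 to 228, 222 to 336, 238 to 264 and 165 to 245 CPM. Cholangiocyte sums were 21.9 to 27.5, 12.7 to 21.4, 16.2 to 20 and 19.2 to 24.8 CPM. The part of these markers and of the acute phase genes in the transporter results was not tested.

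Cyp2b10, Cyp2c29 and Cyp3a11, P450 genes read as controls, were higher in hCAR/hPXR than in WT mice after CITCO, but no transporter was called in any of the 6 comparisons. A call needed a fold change over 1.5 and a Benjamini-Hochberg adjusted p under 0.05 from the quasi-likelihood test of edgeR. The nearest to a call was Slco1a1, a sinusoidal uptake carrier, which had its lowest level in hCAR/hPXR mice. By the Wald test of DESeq2, which the methods use, Slco1a1 was lower in hCAR/hPXR mice than in both WT groups at an adjusted p under 0.05 with no minimum fold. DESeq2 adjusted over 2953 genes in the comparison with WT CITCO and 5091 in that with WT corn oil, and edgeR over 8594. Whether Slco1a1 was called therefore depended on the test, with its own set of adjusted genes, and on the minimum fold. The separate parts of the test and of that set were not tested. The n is 3 mice per group, as the methods give it, and p-values refer to the spread between these mice. In whole liver, a lower level cannot be told apart from fewer cells of the type that carries it.

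**Figure D1:**
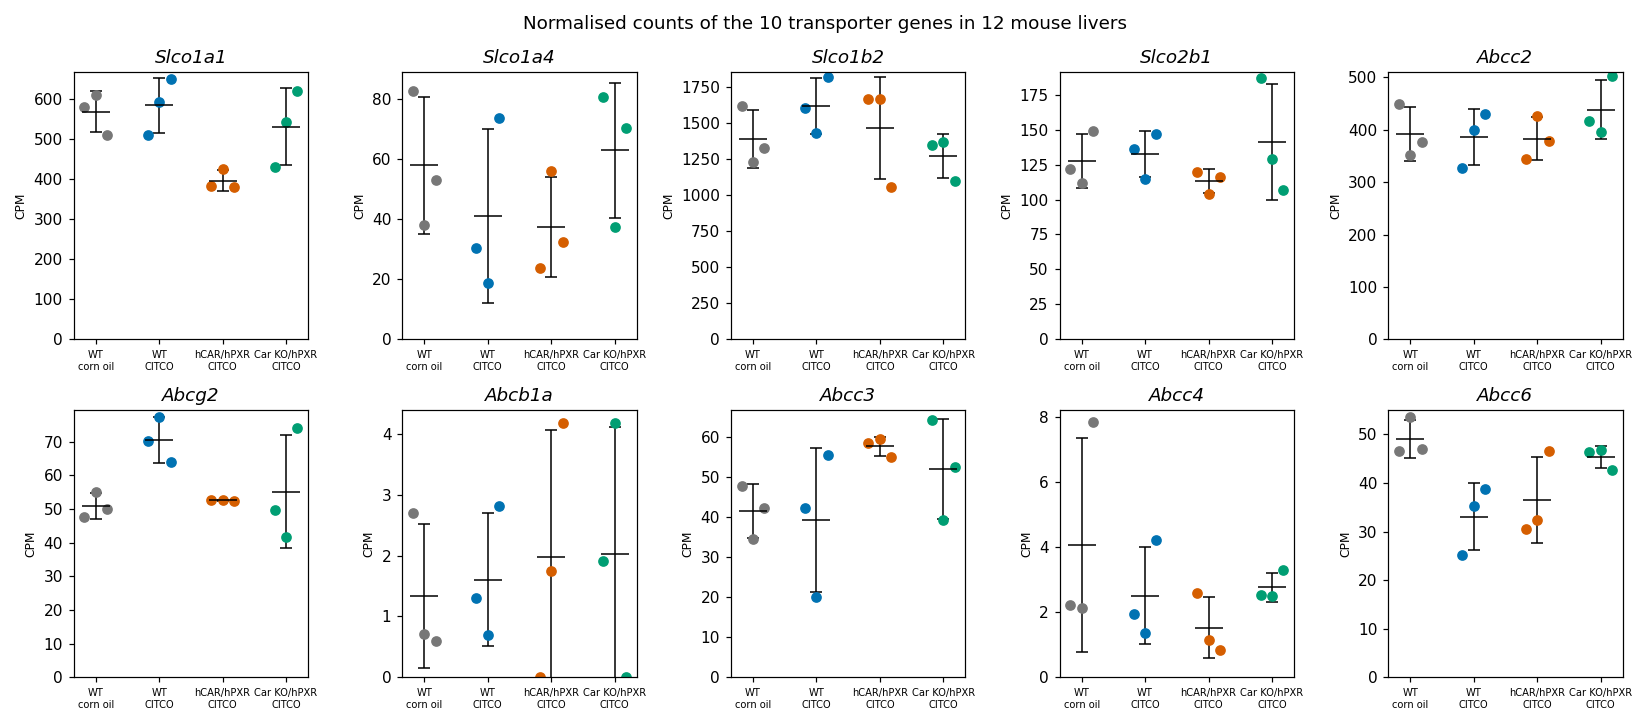
Each panel plots 1 transporter gene, with CPM on a linear axis from 0, a point for each library, a line for the group mean and bars for the SD (n = 3). Bars are cut at 0 in the Abcb1a panel. The 3 hCAR/hPXR libraries of Slco1a1, at 379 to 426 CPM, lie below all other libraries of that panel.

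The uptake carriers Slco1b2, Slco1a4 and Slco1a1, lie together on chromosome 6 of GRCm38, from 141629518 to 141686646 on the plus strand, from 141805440 to 141856199 on the minus strand and from 141907282 to 141946962 on the minus strand (GENCODE M21). Slco2b1 lies on chromosome 7 from 99657804 to 99711340 on the minus strand. Reads that match more than 1 gene were shared out by RSEM. Counts of Slco1a1 and Slco1a4 were not whole numbers in 12 of 12 libraries, and those of Abcb1a in 7, while the other 7 transporter genes had whole counts throughout. No stretch of 50 bases in the last 500 bases of their annotated coding transcripts was shared with another gene, for any of the 10.

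Promoter windows (250 bases before and 50 after the transcription start, RefSeq, GRCm38.p6) were on hand for 8 of the 10 genes. Abcc3 and Abcc6 had none. The Abcb1a window, at 8566841 to 8567140 on chromosome 5, lies before the GENCODE span of that gene, which starts at 8660077. The windows of the chromosome 6 carriers and of Abcc2 are shown because these genes lie side by side or are well-known targets of nuclear receptors, so that their starts can be set beside the levels. Capitals mark half-sites (AGGTCA or AGTTCA, on either strand), TTCNNNGAA and TGACNNNGC (either strand).
Slco1a1, chr6:141946913-141947212, minus strand: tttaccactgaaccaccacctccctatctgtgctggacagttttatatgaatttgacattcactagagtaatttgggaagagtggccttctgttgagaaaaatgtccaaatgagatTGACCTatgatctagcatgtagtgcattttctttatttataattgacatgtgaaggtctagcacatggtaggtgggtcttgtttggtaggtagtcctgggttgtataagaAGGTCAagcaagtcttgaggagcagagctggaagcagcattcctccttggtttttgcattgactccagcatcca
Slco1a4, chr6:141856171-141856470, minus strand: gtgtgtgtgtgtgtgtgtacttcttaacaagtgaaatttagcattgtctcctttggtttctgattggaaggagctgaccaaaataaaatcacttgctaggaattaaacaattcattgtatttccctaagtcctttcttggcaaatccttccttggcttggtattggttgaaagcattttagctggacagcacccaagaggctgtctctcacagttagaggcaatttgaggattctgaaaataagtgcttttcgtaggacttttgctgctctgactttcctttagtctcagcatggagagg
Slco1b2, chr6:141629268-141629567, plus strand: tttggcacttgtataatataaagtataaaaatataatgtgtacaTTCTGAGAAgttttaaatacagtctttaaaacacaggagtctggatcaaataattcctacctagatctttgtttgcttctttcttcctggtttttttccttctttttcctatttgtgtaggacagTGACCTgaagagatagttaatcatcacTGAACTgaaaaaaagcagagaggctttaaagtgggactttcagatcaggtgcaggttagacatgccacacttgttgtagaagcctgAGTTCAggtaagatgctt
Abcc2, chr19:43782058-43782357, plus strand: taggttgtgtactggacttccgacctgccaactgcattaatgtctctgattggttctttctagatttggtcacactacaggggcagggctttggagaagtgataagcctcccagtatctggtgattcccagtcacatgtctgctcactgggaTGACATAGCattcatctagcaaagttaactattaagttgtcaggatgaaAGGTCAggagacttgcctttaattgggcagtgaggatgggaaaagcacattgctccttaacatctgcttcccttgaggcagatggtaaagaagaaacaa

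Of the arrangements of paired half-sites that CAR and PXR bind with RXR, DR4, DR3 and ER6 were searched for. DR4 and DR3 are direct repeats separated by 4 and 3 bases, and ER6 is an everted repeat separated by 6. With the exact half-sites AGGTCA or AGTTCA, none of these pairs was found in the windows of any of the 8 genes. Other arrangements and half-sites with other letters were not searched for. Among all 32851 windows, 0.0274% held a DR4, 0.0122% a DR3 and 0.00913% an ER6. Single half-sites were found in 7 of the 13 windows of these genes, some of which have more than 1 window, against 27.7% of all windows. The Slco1a1 window held 2, whose first bases lie 134 and 24 bases before the start. The Slco1a4 window held none. The Slco1b2 window held 3, at 81 and 54 bases before and 32 bases after the start, and a TTCNNNGAA (8.3% of all windows) at 206 bases before. The Abcc2 window held 1 at 49 bases before the start and a TGACNNNGC (12.4% of all windows) at 98 bases before. A match gives only the letters, and receptors can bind far outside a window of this size.

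Slco1a1 encodes Oatp1a1, which takes up organic anions such as steroid conjugates. Its levels were 581, 611 and 511 CPM in WT corn oil, 511, 592 and 649 in WT CITCO, 383, 426 and 379 in hCAR/hPXR and 430, 542 and 620 in Car KO/hPXR mice. The hCAR/hPXR libraries lay below each library of the other 3 groups, by the least against the 430 CPM of Car KO/hPXR replicate 1. The means were 568 ± 51.2, 584 ± 69.1, 396 ± 26.4 and 531 ± 95.5 CPM (SD, n = 3 each). After CITCO, the level was 1.47-fold lower in hCAR/hPXR than in WT mice (log2 fold change -0.56, standard error 0.16, 95% interval -0.90 to -0.22, unadjusted p = 0.00276, adjusted p = 0.208, edgeR). It was 1.43-fold lower than in WT corn oil mice (log2 fold change -0.52, interval -0.86 to -0.18, adjusted p = 0.179, edgeR) and 1.34-fold lower than in Car KO/hPXR mice (log2 fold change -0.42, interval -0.76 to -0.08, adjusted p = 0.334, edgeR). DESeq2's Wald test gave log2 fold changes of -0.58, -0.53 and -0.44 for the same 3 comparisons, with adjusted p-values of 0.0137, 0.0257 and 0.139. The first 2 pass an adjusted p under 0.05 and do not reach a fold of 1.5. Within WT mice, CITCO over corn oil gave a log2 fold change of 0.04 (interval -0.30 to 0.38). In the same order of replicates, summed acute phase genes stood at 2790, 2780 and 2370 CPM in WT corn oil libraries. The sums were 8840, 6760 and 2810 CPM in WT CITCO and 18600, 6610 and 7880 CPM in hCAR/hPXR libraries. In Car KO/hPXR libraries the sums were 3180, 3210 and 2650 CPM. The part of the acute phase genes in this result was not tested.

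Because the counts of the Slco1a genes rest in part on a division of reads, Slco1a1, Slco1a4, Slco1a5 and Slco1a6 were also summed, an alternative chosen after the data were seen. Slco1a1 made up between 84.1% and 96.9% of that sum, Slco1a4 between 3.1% and 15.7%, Slco1a6 at most 0.124%, and Slco1a5 had 0 counts in each library. The sum was 433 ± 42.5 CPM in hCAR/hPXR and 625 ± 91.3 CPM in WT CITCO mice (SD, n = 3) (log2 fold change -0.53, adjusted p = 0.257, edgeR).

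Slco1a4, the gene of Oatp1a4, which carries bile salts, steroid conjugates and cardiac glycosides and is known as a PXR target in mouse liver, was the most variable of the transporters tested. Its levels were 82.9, 38.1 and 53.1 CPM in WT corn oil, 30.5, 18.7 and 73.9 in WT CITCO, 23.8, 56.1 and 32.5 in hCAR/hPXR and 80.7, 37.6 and 70.6 in Car KO/hPXR mice. The groups overlapped in every comparison, and the highest library was 4.44-fold above the lowest. The largest log2 fold change of any transporter was that of Slco1a4 in hCAR/hPXR over Car KO/hPXR mice, at -0.75 (interval -1.64 to 0.13, adjusted p = 0.56, edgeR). Against WT CITCO mice it was -0.12 (interval -1.02 to 0.78) in hCAR/hPXR and 0.63 (interval -0.25 to 1.51) in Car KO/hPXR mice. Without WT CITCO replicate 3 the first of these turned to 0.60, and without hCAR/hPXR replicate 1 to 0.12, so 1 library decided its direction.

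Slco1b2 encodes Oatp1b2, a liver OATP that takes up bilirubin and many drugs. Its levels were 1620, 1230 and 1330 CPM in WT corn oil, 1610, 1430 and 1820 in WT CITCO, 1670, 1670 and 1060 in hCAR/hPXR and 1350, 1370 and 1100 in Car KO/hPXR mice. The Car KO/hPXR libraries lay below the WT CITCO libraries, with means of 1280 ± 150 and 1620 ± 195 CPM (SD, n = 3 each). The log2 fold change was -0.35 (interval -0.75 to 0.06, adjusted p = 0.618, edgeR). For hCAR/hPXR over WT CITCO it was -0.14 (interval -0.55 to 0.26), and the hCAR/hPXR mean rests on replicate 3, which stood apart from the other 2.

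Slco2b1, whose product carries steroid sulfates, stood between 104 and 187 CPM in all libraries. Its highest level was in Car KO/hPXR replicate 1, and the groups overlapped in each comparison. In hCAR/hPXR over WT CITCO, with means of 113 ± 8.11 and 133 ± 16.4 CPM (SD, n = 3 each), the log2 fold change was -0.23 (interval -0.63 to 0.18, adjusted p = 0.79, edgeR).

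Of the canalicular pumps, Abcc2 (Mrp2, chromosome 19, 43782192 to 43840740, plus strand), which exports glutathione and glucuronide conjugates into bile, was the steadiest of the 8, with 1.53-fold between its lowest and highest library. Its levels were 449, 351 and 376 CPM in WT corn oil, 327, 400 and 431 in WT CITCO, 345, 426 and 379 in hCAR/hPXR and 416, 396 and 502 in Car KO/hPXR mice. The groups overlapped in each comparison. For hCAR/hPXR over WT CITCO the log2 fold change was -0.01, and its interval, as a fold from 0.787 to 1.25, lies within 1.5-fold in either direction.

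Abcg2 (Bcrp, chromosome 6, 58584523 to 58695676, plus strand) exports sulfate conjugates, porphyrins and drugs. Its levels were 47.5, 55 and 50.1 CPM in WT corn oil, 70.1, 77.4 and 64.0 in WT CITCO, 52.8, 52.6 and 52.5 in hCAR/hPXR and 49.6, 41.7 and 73.9 in Car KO/hPXR mice. The WT CITCO libraries lay above the WT corn oil and hCAR/hPXR libraries, while the Car KO/hPXR libraries spanned both. Within WT mice the level with CITCO was 1.39-fold that with corn oil (log2 fold change 0.47, standard error 0.20, interval 0.06 to 0.89, unadjusted p = 0.0275, adjusted p = 0.468, edgeR). For hCAR/hPXR over WT CITCO it was -0.42 (standard error 0.20, interval -0.84 to 0.00, unadjusted p = 0.0486, adjusted p = 0.566, edgeR).

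Abcb1a, the gene of a P-glycoprotein (chromosome 5, 8660077 to 8748575, plus strand), had between 0 and 6 counts in the 12 libraries, at or near the limit of 3 counts, and no fold change is given. Its related pump gene Abcb1b had between 0 and 5 counts. At this depth neither could be compared between groups.

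Among the pumps of the sinusoidal side, Abcc3 (Mrp3, chromosome 11, 94343295 to 94392997, minus strand) exports glucuronides and bile salts into blood. Its levels were 47.9, 34.6 and 42.3 CPM in WT corn oil, 42.2, 20.1 and 55.6 in WT CITCO, 58.5, 59.6 and 55 in hCAR/hPXR and 64.2, 39.2 and 52.6 in Car KO/hPXR mice. The hCAR/hPXR libraries lay above the WT corn oil libraries and overlapped those of WT CITCO. In hCAR/hPXR over WT CITCO, with means of 57.7 ± 2.38 and 39.3 ± 17.9 CPM (SD, n = 3 each), the log2 fold change was 0.56 (standard error 0.27, interval -0.02 to 1.14, unadjusted p = 0.0575, adjusted p = 0.586, edgeR). That value became 0.23 when WT CITCO replicate 2 was left out and 0.88 when replicate 3 of the same group was. Against WT corn oil mice the change in hCAR/hPXR mice was 0.47 (interval -0.10 to 1.03, adjusted p = 0.58, edgeR).

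Abcc6 (Mrp6, chromosome 7, 45967555 to 46030302, minus strand) is needed for the release of ATP from hepatocytes. Its levels were 46.6, 53.6 and 47.1 CPM in WT corn oil, 25.3, 35.3 and 38.7 in WT CITCO, 30.6, 32.4 and 46.7 in hCAR/hPXR and 46.4, 46.8 and 42.7 in Car KO/hPXR mice. WT CITCO libraries lay below all WT corn oil and Car KO/hPXR libraries. Within WT mice the level with CITCO was 1.48-fold lower (log2 fold change -0.57, standard error 0.22, interval -1.02 to -0.11, unadjusted p = 0.0169, adjusted p = 0.387, edgeR). Car KO/hPXR mice given CITCO were at 0.46 above WT mice given CITCO on the log2 scale (interval -0.01 to 0.92, adjusted p = 0.542, edgeR). The 2 comparisons share the WT CITCO libraries.

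Abcc4 (Mrp4, chromosome 14, 118482692 to 118706219, minus strand), which exports cyclic nucleotides and bile salts, had 5, 3 and 13 counts in WT corn oil, 3, 2 and 6 in WT CITCO, 5, 2 and 1 in hCAR/hPXR and 4, 3 and 4 in Car KO/hPXR mice. The groups overlapped, and the counts lie at or near the limit of 3.

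**Figure D2:**
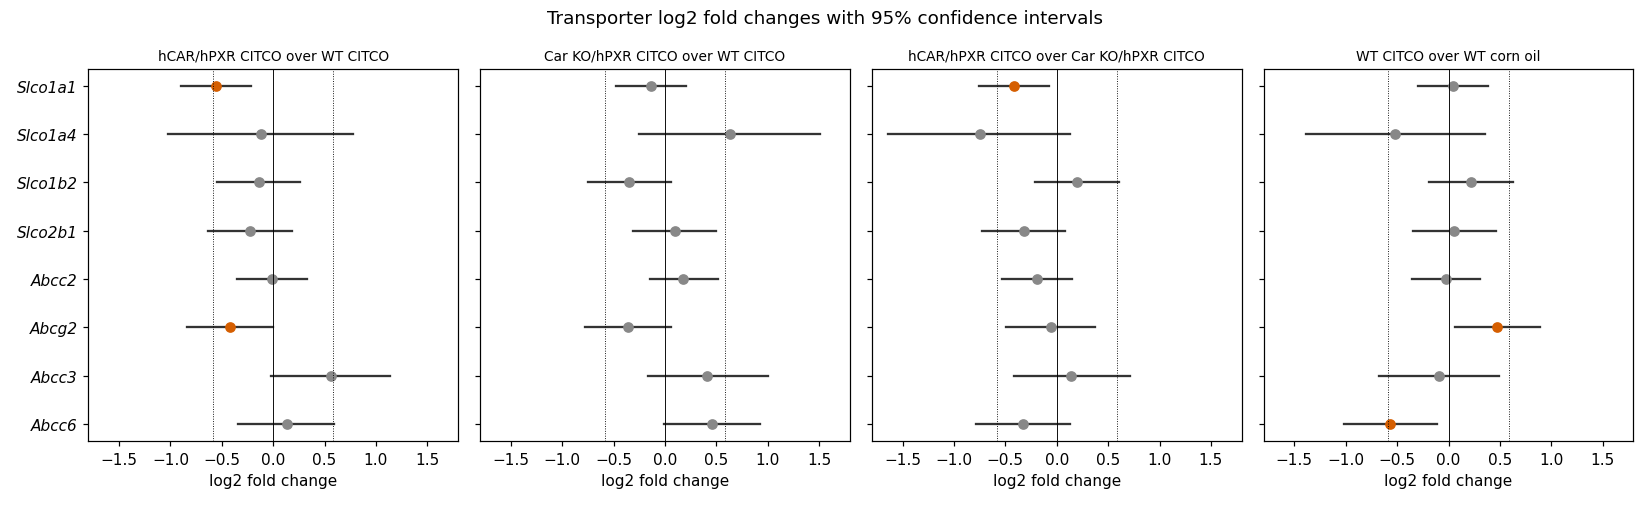
The log2 fold change of each tested transporter is a point on the x axis and its 95% confidence interval a bar, in 4 comparisons; dotted lines mark a 1.5-fold change and orange points an unadjusted p under 0.05. Slco1a1 and Abcg2 lie to the left of 0 in hCAR/hPXR over WT CITCO, at -0.56 and -0.42.

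Counts of transporters past the looser thresholds stood as follows against all genes tested. In hCAR/hPXR over WT CITCO 0 of 8 were called by the edgeR rule (0.407% of all genes), 2 had an unadjusted p under 0.05 (8.81%) and 2, Abcg2 and Slco1a1, both lower, had libraries that did not overlap (13.6%). In Car KO/hPXR over WT CITCO the counts were 0 (0.256%), 0 (9.3%) and 2, Slco1b2 and Abcc6 (14.2%). For WT CITCO over WT corn oil they were 0 (0.233%), 2 (9.13%) and 2, Abcg2 and Abcc6 (14.7%). For hCAR/hPXR over Car KO/hPXR they were 0 (0.582%), 1 (10.6%) and 1, Slco1a1 (15.1%). For hCAR/hPXR over WT corn oil they were 0 (0.989%), 1 (10.9%) and 2, Abcc3 and Slco1a1 (16.2%). For Car KO/hPXR over WT corn oil they were 0 (0.0465%), 0 (5.6%) and 0 (11.6%). By DESeq2 at an adjusted p under 0.05 the count was 1, Slco1a1, in hCAR/hPXR over WT CITCO (2.47% of the genes given an adjusted p) and 1, Slco1a1, over WT corn oil (2.87%). It was 0 in Car KO/hPXR over WT CITCO (2.05%), in WT CITCO over WT corn oil (0.826%), in hCAR/hPXR over Car KO/hPXR (2.18%) and in Car KO/hPXR over WT corn oil (0.126%). The 6 comparisons share libraries, so these counts are not independent of each other.

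The median log2 fold change of the 8 transporters was -0.13 in hCAR/hPXR over WT CITCO, against 0.013 over all genes tested, with 6 lower and 2 higher. It was 0.14 in Car KO/hPXR over WT CITCO (all genes -0.004) and 0.01 in WT CITCO over WT corn oil (all genes 0). In hCAR/hPXR mice it was -0.26 over Car KO/hPXR (all genes 0.013) and -0.1 over WT corn oil (all genes 0.013), and in Car KO/hPXR over WT corn oil mice it was 0.11 (all genes 0). Over pairs of transporters, correlations of log2 CPM across the 12 libraries ran from -0.59 to 0.68 over 28 pairs with a median of 0.105, as a description of libraries that share groups. The highest was between Abcc2 and Slco1a4.

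The controls were read in the same fit. Cyp2b10, the classical CAR target P450, had 2, 6 and 2 counts in WT CITCO and 281, 288 and 184 in hCAR/hPXR mice (log2 fold change 6.05, interval 5.20 to 6.89, adjusted p = 4.75e-08, edgeR), and 1, 0 and 3 counts in Car KO/hPXR mice. Cyp2c29 rose 3.80-fold (adjusted p = 0.000149) and Cyp3a11 4.05-fold (adjusted p = 0.000404) in hCAR/hPXR over WT CITCO mice by edgeR. The other P450 controls were not called in that comparison: Cyp4a14, a PPARα target, was at 34 ± 6.6 against 136 ± 115 CPM (SD, n = 3 each; log2 fold change -1.99, adjusted p = 0.157, edgeR), and Cyp1a2, an aryl hydrocarbon receptor target, differed by -0.15 on the log2 scale (adjusted p = 0.866, edgeR). Por, the P450 reductase, passed in hCAR/hPXR CITCO over WT corn oil mice, where it was 1.92-fold higher (adjusted p = 0.00962, edgeR). In hCAR/hPXR over Car KO/hPXR mice, Cyp2b10 and Cyp2c29 were called higher by edgeR and Cyp3a11 was not called.

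**Figure D3:**
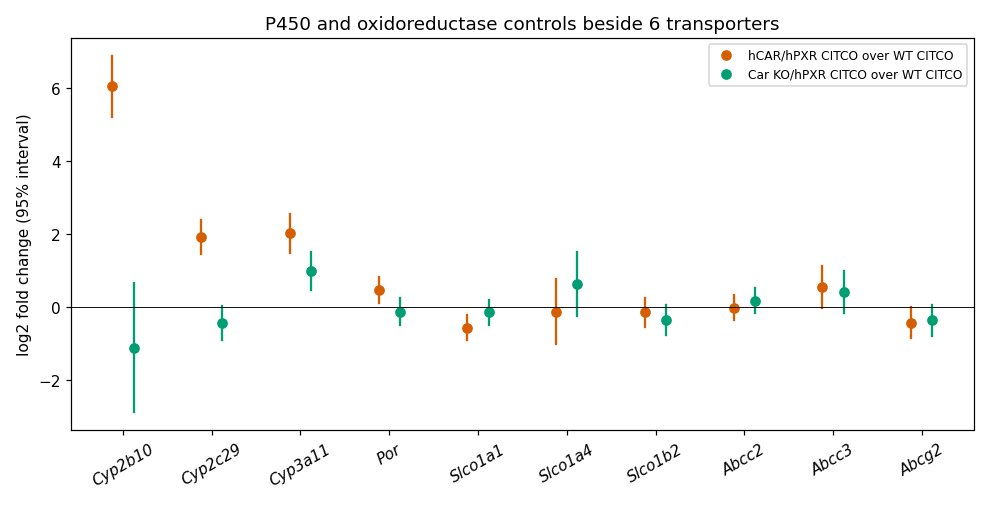
Log2 fold changes with 95% intervals of Cyp2b10, Cyp2c29, Cyp3a11, Por and 6 transporters on a common y axis, in hCAR/hPXR (orange) and Car KO/hPXR (green) over WT CITCO mice. Cyp2b10 reaches 6.05 in hCAR/hPXR mice, where the 6 transporters lie between -0.56 and 0.56. In Car KO/hPXR mice the 6 transporters lie between -0.36 and 0.63.

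Other genes of transport were read from lists of related genes. Of 11 other OATP genes 1, of 14 other ABC pumps 7 and of 19 SLC carriers of bile acids, organic ions and nucleosides 12 passed the filter, and 0 of these 20 genes were called by edgeR in any of the 6 comparisons. Among the SLC carriers in hCAR/hPXR over WT CITCO mice, 9 of 12 had lower values. An unadjusted p under 0.05 by edgeR was found for 4 of the 12, against 8.81% of all genes tested. The median log2 fold change of the 12 carriers was -0.27 against 0.013 over all genes. Among the ABC pumps 1 of 7 had an unadjusted p under 0.05, and the median was -0.04. Genes most like Slco1a1 over the 12 libraries were Lpcat3 (r = 0.90), Dnase1l3 (0.89) and Cdk19 (0.89), by Pearson's r of log2 CPM. Those most like Abcc6 were Pmf1 (0.87), Fam63b (0.86) and Lsm10 (0.85), and those most like Abcg2 were Rpl27-ps1 (0.91), Rpl28-ps1 (0.86) and Pa2g4 (0.83). These r values describe libraries that share groups and depth.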

How the data were processed

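Liver RNA libraries made from the 3' ends of transcripts were analysed for 12 mice in 4 groups of 3, taken from the sample labels. The authors trimmed reads with Trimmomatic, aligned them with STAR 2.5.2 to Ensembl GRCm38 and estimated expected counts per gene with RSEM 1.3, and deposited these without normalisation; strand use in counting was not given in the sources used here. They also deposited values on a log2 scale from DESeq2's variance-stabilising transformation, which served as an alternative.

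Expected counts were rounded, and edgeR 4.0.16 (R 4.3.3) was run on all 12 libraries with its expression filter, TMM normalisation and quasi-likelihood test. Benjamini-Hochberg adjustment covered the 8594 genes within each of the 6 comparisons separately, with no adjustment across comparisons. Calls needed an adjusted p under 0.05 and a fold over 1.5. Intervals are 95% and were computed from the fold change and F statistic. DESeq2 1.42.0 and limma 3.58.1, other size factors and filters, fits of only the groups compared, a replicate block and fits leaving out each library were alternatives. A sum of Slco1a genes and DESeq2 with no fold minimum were added after the data were seen. The transporters and lists were chosen with earlier results of these data known. Named genes were all 10 transporters, the receptor genes, the P450 controls, Por, Abcb1b, Slco1a5 and Slco1a6. The 3 genes most correlated with each of the 3 transporters of lowest adjusted p were also named. Acute phase genes and cell markers were given as sums. By edgeR, 9 of the 10 acute phase genes were called higher in hCAR/hPXR over WT corn oil mice. In hCAR/hPXR over Car KO/hPXR mice 4 were, and in WT CITCO over WT corn oil mice 2. The markers Fgb (higher) and Alas2 (lower) were called in hCAR/hPXR over WT corn oil mice. Promoter sequences are RefSeq's.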

Additional observations from a re-analysis of the deposited data

How the results depend on the processing

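Of 16 transporter log2 fold changes with 339 alternative values, 327 kept their direction and their side of the threshold, 10 reversed and 2 passed it. No transporter was called under the other size factors, tests, filters or left-out libraries. By DESeq2's Wald test with adjusted p alone, added after the data were seen, 1 was called in hCAR/hPXR over WT CITCO and 1 in hCAR/hPXR over WT corn oil mice, Slco1a1 in each (log2 fold changes -0.58 and -0.53); edgeR with adjusted p alone called 0. The reversals were all in hCAR/hPXR over WT CITCO mice and of values near 0: Abcc2 was 0.00062 with no filter on low counts, and leaving out 1 library gave -0.12 to 0.07 for Abcc2, -0.07 to 0.25 for Abcc6, -0.56 to 0.60 for Slco1a4 and -0.26 to 0.039 for Slco1b2. The replicate block gave Slco1a4 0.021 and changed no call. Correlations of deviations between same-numbered libraries of different groups ran from -0.06 to 0.07 over 18 pairs. Their median was 0.03, against -0.01 for other pairs, and 9 of 12 libraries were closest to their own number. Weak pairing by number is therefore not excluded. All genes called numbered 35, 22, 20, 50, 85 and 4 in the 6 comparisons, in the order of the report. With no filter they were 184, 227, 179, 233, 261 and 95, with 1 library left out 17 to 36, 5 to 58, 6 to 54, 10 to 86, 25 to 99 and 3 to 6, and by DESeq2 63, 69, 42, 96, 127 and 10. Depth limits Abcb1a and Abcc4.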
